A study of Mus musculus with 2 samples.

Results

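The genes described here are 8 mouse genes that carry the insulin and insulin-like growth factor signal to the Akt kinases, namely Igf1r, Irs1, Irs2, Pik3ca, Pik3cd, Pik3r1, Akt1 and Akt2. They were chosen by name, out of 21887 protein-coding genes. The data are peak calls from chromatin immunoprecipitation followed by sequencing (ChIP-seq), with 1 Myc-Tag ChIP library and 1 input library of a T-cell lymphoma from Lck-Dlx5 mice. In these mice an Lck promoter, which is active in T cells of the thymus, drives a Dlx5 protein carrying a Myc-Tag, the short peptide bound by the antibody. Both libraries came from the transgenic lymphoma, so no library without the transgene was compared. The sample labels describe a primary tumor and an input, with the strain spelled C57BL/6 for the ChIP and C57BL/7 for the input, whereas the methods describe a lymphoma cell line and an IgG control.

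Dlx5 is a homeobox transcription factor that is not normally made in thymocytes. When insulin or a growth factor binds its receptor, the receptor phosphorylates the insulin receptor substrates (Irs), which are docking proteins. These recruit phosphoinositide 3-kinase (PI3K), a dimer of a catalytic and a regulatory subunit, and the lipid it makes brings Akt to the membrane, where Akt is activated. In T cells the same route is also used by cytokines, and it promotes growth and survival. The study asked which genes Dlx5 binds in these lymphomas, and it named Irs2 from this same ChIP-seq, so that the presence of an interval at Irs2 is not independent evidence.

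An interval was assigned to every gene whose body, extended by 10 kb in both directions, it touched by 1 bp or more. On this count, 2 of the 8 genes had a Myc-Tag interval, namely Irs2 and Pik3ca, with 1 interval each (25%, 95% Wilson interval 7.15 to 59.1%). Among all protein-coding genes the share was 19.0%, so the count among the 8 genes was near the background of this library. No interval was called at Igf1r, Irs1, Pik3cd, Pik3r1, Akt1 or Akt2. There was 1 library per group, so no test between conditions was made, and the Wilson interval covers counting error only. Of all protein-coding genes, 0.0731% had an input interval by the same rule, and none of the 8 genes did.

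The promoter sequences of 4 of the genes are shown because they set the gene with the interval over its start, Irs2, beside its relative Irs1, and Pik3ca beside Akt2, a gene with no interval. Each is the 250 bases before the gene start, read 5′ to 3′ on the strand of the gene, from RefSeq with build GRCm38.p6. Irs2 is at chr8:11008930-11009179 on the minus strand, Irs1 at chr1:82291440-82291689 on the minus strand, Pik3ca at chr3:32396815-32397064 on the plus strand and Akt2 at chr7:27591302-27591551 on the plus strand. Capitals mark TAAT, the core of the Dlx motif, in either direction, or CACGTG, the E-box of basic helix-loop-helix factors.
Irs2: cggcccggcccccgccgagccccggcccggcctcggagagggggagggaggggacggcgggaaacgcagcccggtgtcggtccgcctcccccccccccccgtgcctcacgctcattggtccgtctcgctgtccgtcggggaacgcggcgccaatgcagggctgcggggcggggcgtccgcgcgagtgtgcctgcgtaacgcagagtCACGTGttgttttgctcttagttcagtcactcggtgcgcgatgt
Irs1: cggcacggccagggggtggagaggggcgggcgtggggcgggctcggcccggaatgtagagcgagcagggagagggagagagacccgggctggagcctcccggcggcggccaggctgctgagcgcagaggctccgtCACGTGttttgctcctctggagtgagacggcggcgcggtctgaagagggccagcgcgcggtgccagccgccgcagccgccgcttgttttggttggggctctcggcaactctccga
Pik3ca: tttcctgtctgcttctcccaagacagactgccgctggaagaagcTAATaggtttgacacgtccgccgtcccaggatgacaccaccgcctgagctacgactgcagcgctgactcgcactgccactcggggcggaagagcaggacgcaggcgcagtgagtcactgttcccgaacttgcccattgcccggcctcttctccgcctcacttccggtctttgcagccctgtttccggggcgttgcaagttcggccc
Akt2: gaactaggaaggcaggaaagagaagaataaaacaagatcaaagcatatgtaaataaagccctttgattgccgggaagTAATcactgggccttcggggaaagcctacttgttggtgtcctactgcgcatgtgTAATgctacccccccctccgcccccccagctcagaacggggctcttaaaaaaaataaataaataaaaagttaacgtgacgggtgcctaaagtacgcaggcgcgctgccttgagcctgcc

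The Dlx family motif named by the study, TAATT, was searched on both strands (AATTA on the other) in windows from 250 bases before to 50 bases after each listed start. All 8 genes had a listed start, with 15 windows in all, and 0 of the 15 held TAATT. Of 21263 such windows of protein-coding genes, 23.5% held it. The core TAAT, or ATTA on the other strand, was present in 5 of the 15 windows, which belonged to Pik3ca, Pik3cd, Pik3r1 and Akt2. Of all windows, 51.8% held this core. In Pik3ca the TAAT began 206 bases before the start, and in Akt2 there was 1 at 173 and 1 at 119 bases before the first start. Irs1 and Irs2 held no TAAT in this window. The window at Irs2 lay wholly inside the Myc-Tag interval but was 300 of its 1095 bases (27.4%), so the remaining bases, the summit among them, were not read. The study itself reports a Dlx5 consensus in the Irs2 promoter, shared by mouse, rat, monkey and human. It also reports TAATT as the motif of most Dlx5 binding in this ChIP-seq. The windows searched here are not the sequences of the intervals, so they do not decide on either statement. Windows that overlapped a Myc-Tag interval held TAATT in 14.0% of 2117 cases, against 24.5% in the other windows. They were also richer in G and C, with a median of 63.3% against 55.7%, and the part of base composition in that difference was not tested.

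Among the docking proteins, Irs2 had an interval at its start and Irs1 had none. Irs2, which couples the receptor to PI3K, lies on the minus strand of chromosome 8 (mm10, 10984681 to 11008929). Its only interval, from 11008584 to 11009678, reached from 749 bp before the start to 345 bp into the gene. The summit, the highest point of the peak, was 447 bp upstream of the start and had a height of 14. The height is a whole number deposited without a stated normalization, and it was read only against the other summits of this library, whose median was 16 (quartiles 13 and 19). Of the 3477 summits, 2084 (59.9%) were taller than that of Irs2, 380 had its height and 1013 were lower. The Irs2 peak was thus wide but not tall, since 15.9% of all intervals were wider than its 1095 bp and the median was 752 bp. Among the 380 intervals of the same height, the median width was 728 bp and 56 (14.7%) were wider. The interval also lay over the first part of 9530052E02Rik, a long noncoding RNA gene on the opposite strand (11007850 to 11054541), and the library does not separate these genes.

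Irs1, the docking protein best known from muscle and fat, spans 82233105 to 82291439 of chromosome 1. The nearest summit, at 82724960 with a height of 13, was 434 kb upstream of Irs1. It lay 42 bp past a start of Mff, a gene of mitochondrial fission. Irs1 was therefore not a gene with a peak just beyond the limit of 10 kb. In its G and C content the Irs1 window (71.3%) was close to that of Irs2 (72.0%), and both were above the median of 56.3% over all windows.

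Of the PI3K genes, Pik3ca had an interval and Pik3cd and Pik3r1 had none. Pik3ca encodes p110 alpha, the catalytic subunit found in most cell types, and lies on the plus strand of chromosome 3 (32397065 to 32466112). Its interval, from 32397527 to 32398078, was inside the gene, from 462 to 1013 bp past the start, and overlapped no other gene. The summit at 32397792 was 727 bp downstream of the start with a height of 13. Taller summits numbered 2464 of the 3477 (70.9%), and 648 were lower. The Pik3ca interval was narrow as well as low, as 83.5% of all intervals were wider than its 552 bp. Among the 365 intervals with a height of 13, the median width was 692 bp and 290 (79.5%) were wider. Pik3ca and Irs2 thus differed little in height, at 13 and 14, whereas the Irs2 interval was the wider. With a single library, neither difference has a replicate check.

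Pik3cd encodes p110 delta, the catalytic subunit of leukocytes, and spans 149649168 to 149702566 of chromosome 4. The nearest summit had a height of 21, above those of Irs2 and Pik3ca, but lay 49994 bp upstream of Pik3cd and inside Slc25a33, a gene of a mitochondrial nucleotide carrier. Pik3r1 encodes p85 alpha, the main regulatory subunit, and spans 101680761 to 101768217 of chromosome 13. It was the most isolated of the 8 genes. Its nearest summit, with a height of 19, was 936 kb past the end of the gene and 243 bp past the start of Mrps36. No summit and no other protein-coding gene lay within 500 kb of Pik3r1, whereas the median protein-coding gene had 2 summits within that distance.

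**Figure D1:**
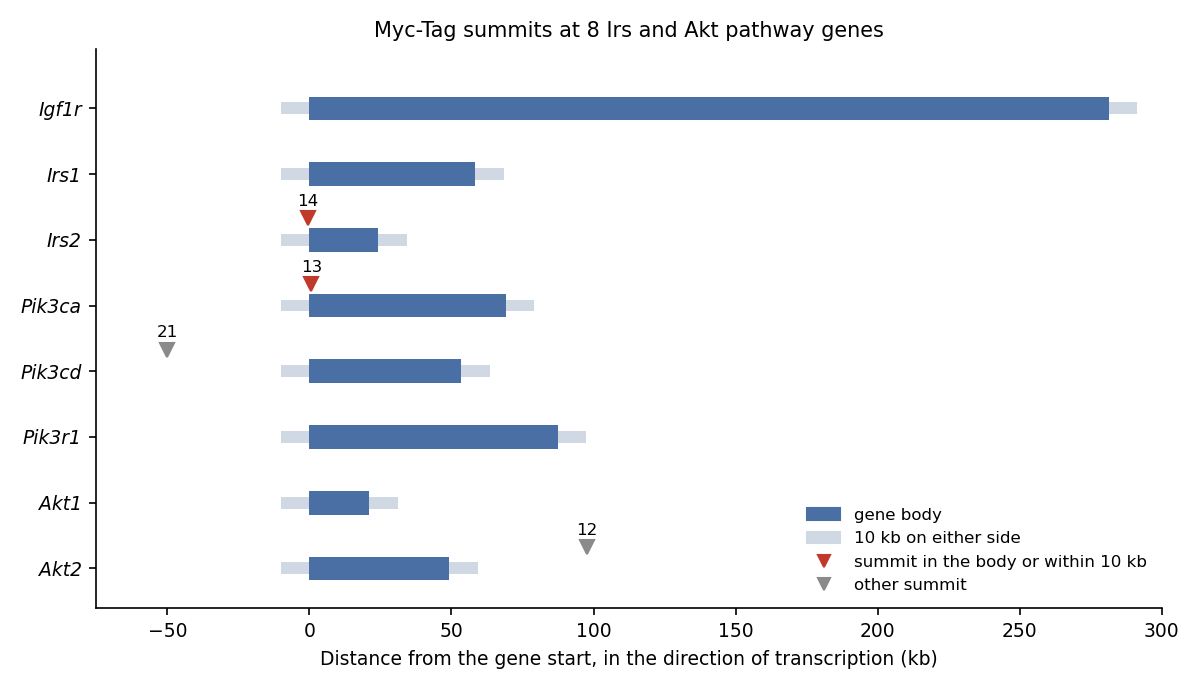
Myc-Tag summits at the 8 genes, drawn from the gene start in the direction of transcription (kb), with gene bodies as dark bars, the 10 kb on either side as light bars and summits as triangles with their height. Only Irs2 (14) and Pik3ca (13) have a summit in the body or within 10 kb, 447 bp upstream and 727 bp downstream of the start, and the summits near Pik3cd (21) and Akt2 (12) lie outside the light bars, while the nearest summits of the other 4 genes are beyond the axis.

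Neither Akt gene had an interval. Akt1, the most widely expressed of these kinases, spans 112653821 to 112674884 of chromosome 12. The nearest summit, at 112976544 with a height of 16, was 302 kb upstream and lay 19 bp before a start of Btbd6. Akt2, known for its part in the response to insulin and, in an activated form, the transgene of another lymphoma model of the same group, spans 27591552 to 27640826 of chromosome 7. Its nearest summit, at 27689136 with a height of 12, was 48.3 kb past the end of Akt2 and inside Zfp607b, a zinc finger gene. The surroundings of these genes were not poor in genes, with 26 other protein-coding genes within 500 kb of Akt1 and 34 of Akt2, and 2 summits in each case.

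Igf1r encodes the receptor for insulin-like growth factors and was the longest of the 8 genes, with 281 kb (chromosome 7, 67952257 to 68233668). A long gene offers more room for an interval, yet no summit lay in this body or the 10 kb on either side. Of protein-coding genes of 100 kb or more, 19.8% had an interval, against 23.0% for 30 to 100 kb, 21.6% for 10 to 30 kb and 14.2% for shorter genes. The nearest summit, with a height of 16, was 449 kb upstream of Igf1r and lay inside no protein-coding gene.

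For the 6 genes without an interval, the distance to the nearest summit was between 48.3 and 936 kb, with a median of 368 kb. Among the 17719 protein-coding genes without an interval, the median was 220 kb (quartiles 74.6 and 726 kb). A summit was nearer in 16.9% of these genes than it was in Akt2, and in 17.5% than it was in Pik3cd. The corresponding shares were 57.3% for Akt1, 65.1% for Irs1, 65.9% for Igf1r and 79.5% for Pik3r1. Thus Akt2 and Pik3cd were nearer to a summit than most genes without an interval, and the other 4 genes were not. Of the 6 nearest summits, those for Irs1, Akt1 and Pik3r1 were within 243 bp of a start of another gene. Where no interval was called, binding was not detectable at the calling threshold, and the read depth of the libraries is unknown.

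**Figure D2:**
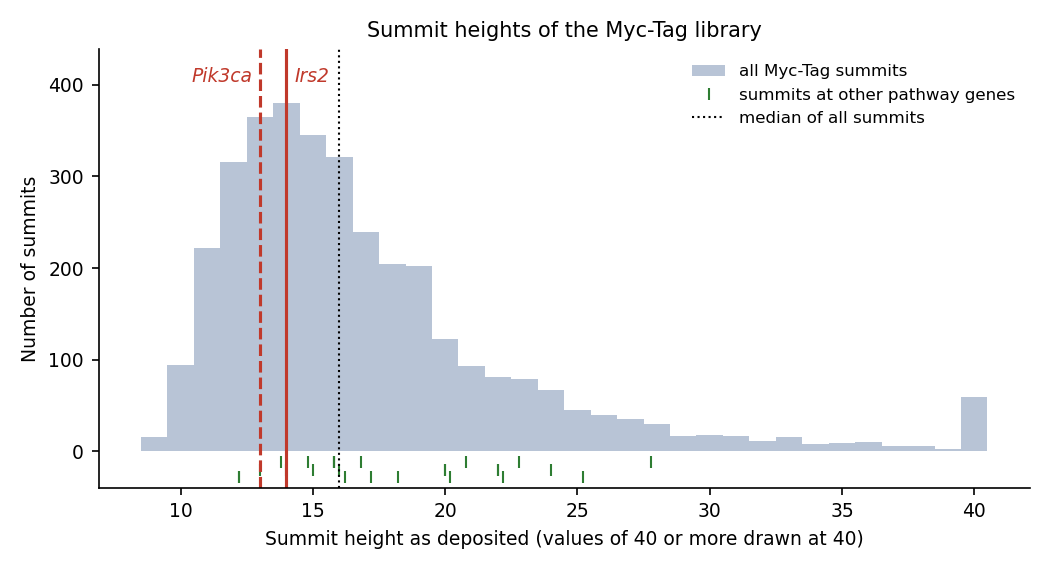
Heights of all 3477 Myc-Tag summits as deposited (bars, number of summits, the tallest gathered in the last bar), with red lines for Irs2 (14) and Pik3ca (13), a dotted line at the median of 16 and green ticks below the bars for summits at the other genes of the pathway. Irs2 and Pik3ca both lie below the median, and the green ticks run from 12 to 28.

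The position of the summit relative to the gene start was compared with other genes, because the Irs2 interval covered its start and the Pik3ca interval lay just inside the gene. Of 17492 protein-coding genes with a listed start, 11.4% had a summit within 1 kb of one, and Irs2 and Pik3ca were the 2 among the 8 genes. In these genes the median position was 11 bp downstream, with quartiles 137 bp upstream and 164.5 bp downstream. Summits were upstream in 956 of these genes (47.9%) and downstream in 1036 (51.9%). The Irs2 summit was among the more distant ones, as 126 genes (6.32%) had theirs 447 bp or more upstream. Likewise, 47 genes (2.36%) had a summit 727 bp or more downstream, as Pik3ca did. Neither summit therefore lay within 300 bp of the start. Of the summit positions in this library, 3329 of 3477 were multiples of 16 bp, which is the precision of these distances.

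**Figure D3:**
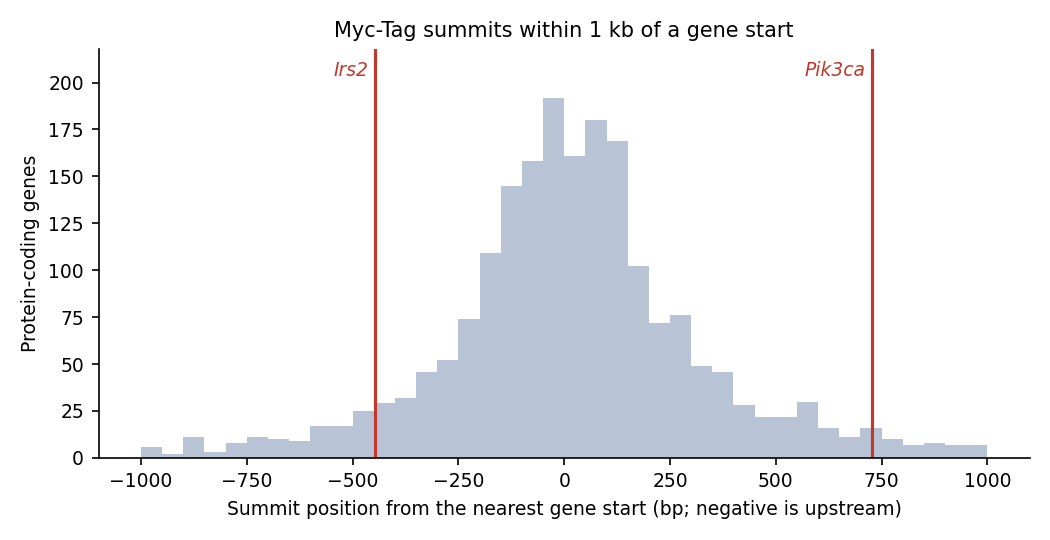
Position of the nearest Myc-Tag summit in the protein-coding genes with a summit within 1 kb of a start (bp, negative is upstream), as the number of genes in bins along the axis. Most summits crowd around the start, while Irs2, 447 bp upstream, and Pik3ca, 727 bp downstream (red lines), lie on the flanks of the distribution.

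The other genes of the pathway were taken from a list of 65 genes ordered by role, from ligands to the targets of mTOR. By the rule of 10 kb, 19 of them had a Myc-Tag interval (29.2%, 95% Wilson interval 19.6 to 41.2%), against the 19.0% of all protein-coding genes. They were served by 26 intervals with heights from 12 to 28 and a median of 17, and none of these was called in the input. Of the 17 genes with an interval and a listed start, 13 had a summit within 1 kb of a start. The same share over all genes with an interval is not given here, so this count is not read as a trait of the list. Summits near genes were common in this library, as 58.4% of all summits lay within 1 kb of an end of a protein-coding gene. The list was drawn up with earlier results of these data known, so its share is a description. The Wilson interval covers counting error only and is not a test against the 19.0%.

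Upstream of PI3K, no interval was called at the 4 ligand genes (Ins1, Ins2, Igf1 and Igf2) or at the 8 other adaptor genes, which include Irs4, Grb2 and Gab1. Of 4 further receptor genes, Insr, the insulin receptor and relative of Igf1r, had an interval. Its summit of 28 was the tallest of the list, exceeded by 5.18% of all summits, and lay 33 bp inside an end of the gene. Igf1r had no interval, but with a single library this contrast between the receptors has no replicate check. The receptor gene Il7r, through which interleukin 7 acts on T cells, had none, and its nearest summit was 435 kb away. Of the 5 other catalytic PI3K genes none had an interval, Pik3cb and Pik3cg included, which left Pik3ca as the only one of 7. Of 6 further regulatory genes, Pik3r3 had one, with a height of 14 and the summit 40 bp upstream of a start. The receptor and PI3K counts rest on similarly few genes and were not tested against the 19.0% either.

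Counts by role rest on few genes and were not tested against the 19.0% of all protein-coding genes that had an interval. In the complexes of mTOR, the growth kinase that lies both above and below Akt, 4 of 7 genes had an interval (57.1%). They were Mtor itself (height 23, 262 bp upstream of the start), Rptor of the first complex (20 at the start and 25 in the gene, 35719 bp further in from it), Mapkap1 of the second complex (12 and 16) and Mlst8 (21 and 15). The intervals counted at Mlst8 lay outside that gene and were nearer to Pgp and Caskin1. Pdpk1, the kinase that phosphorylates Akt in its activation loop, had intervals with heights of 16 and 20 outside the gene, whose summits were 19 and 21 bp from ends of Kctd5 and Amdhd2. Sgk1, a relative of Akt, had a summit of 17 placed 42 bp upstream of a start within the gene. Of the Tsc complex and Rheb, which hold mTOR in check and switch it on, Tbc1d7 had an interval (22, 77 bp past the start) and Tsc1, Tsc2 and Rheb had none.

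Among the substrates of Akt, 6 of 10 genes had an interval (60.0%), beside 19.0% of all protein-coding genes, a difference that was not tested. Cdkn1b, which encodes the cell cycle inhibitor p27, had 3 intervals with heights of 20, 15 and 13, and the summit of 15 was 335 bp past its start. Foxo1, a transcription factor kept out of the nucleus by Akt, had summits of 22 and 12, the lower of them 143 bp past the start and the taller 5713 bp upstream. Its relative Foxo3 had a summit of 16 placed 1422 bp upstream. The kinases Gsk3a and Gsk3b had summits of 18 and 17, 341 bp upstream and 951 bp downstream of a start. The interval at Bad, whose product promotes cell death, had a height of 16, with the summit 69 bp upstream of the Bad start and inside the neighboring gene Gpr137. Foxo4, Foxo6, Mdm2 and Cdkn1a had none. Among targets of mTOR in translation, Rps6kb1 (16) and Rps6 (14) had a summit in the gene within 167 bp of a start. Eif4b had a summit of 24 placed 7917 bp upstream. Eif4b lies on chromosome 15, of which lines from these lymphomas carry an extra copy, while none of the 8 genes named at the start does.

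**Figure D4:**
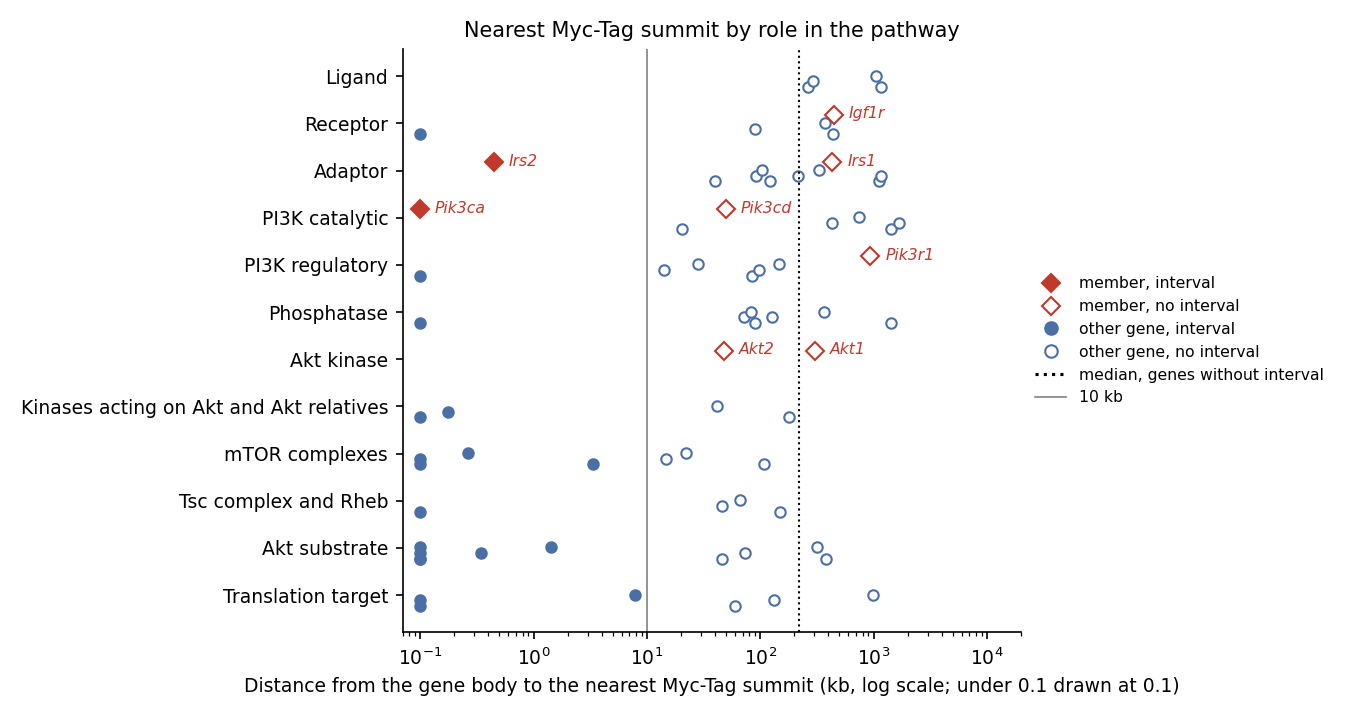
Distance from the gene body to the nearest Myc-Tag summit (kb, log scale, with summits inside or next to the body drawn at the left edge) for the 8 genes (red diamonds) and the 65 other genes of the pathway (blue circles), by role, with filled symbols for genes that have an interval. The filled symbols are 2 of the diamonds and 19 of the circles, and the dotted line marks the median of 220 kb for all genes without an interval.

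Of the listed genes without an interval, 9 had their nearest summit within 50 kb. The nearest was 14.1 kb from Pik3r5 and 14.6 kb from Akt1s1. The distance was 20.5 kb for Pik3c2b, 21.9 kb for Deptor, 28.1 kb for Pik3r2, 40013 bp for Grb2, 41.4 kb for Sgk3, 45.7 kb for Tsc2 and 46.3 kb for Cdkn1a. With 50 kb in place of 10 kb these genes would be counted, as would Akt2 and Pik3cd. The share of the list with an interval was then 43.1% in place of 29.2%, and that of all protein-coding genes 33.3% in place of 19.0%. A summit at such a distance can lie in another gene, as those nearest to Akt2 and Pik3cd did.

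As to the library itself, 28 intervals were called in the input, each with the coordinates of a Myc-Tag interval. On the chromosomes of Irs2, Pik3r1, Akt2 and Igf1r (8, 13 and 7) the input had none, and for the other 4 genes the nearest input summit was at least 5990 kb away. The lineage of the sample could not be read from the peaks. Of 10 T-cell marker genes, 4 had an interval (Cd3d, Cd3g, Cd4 and Lck), as did 3 of 5 B-cell markers, 0 of 5 myeloid markers and 1 of 6 markers of thymic epithelium and stroma (Pdgfra). An interval at a gene is not a measure of its expression.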

How the data were processed

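The authors deposited called intervals and summits of the Myc-Tag ChIP and the input. The deposited value of each summit is a score, the peak height, made by peak calling and with no stated normalization. Active Motif ran the assay on an Illumina GA II, MACS p-value served for calling, and the submitters' processing notes name BWA. Thresholds, versions and read totals are not given in the sources used here, so the depth is unknown. These notes name build mm9, whereas the browser view of the study shows mm10. Taken as mm10, 58.4% of summits lay within 1 kb of an end of a protein-coding gene of RefSeq GRCm38.p6, from 47.0% to 70.7% on the 19 autosomes. On X the share was 26.1% of 23 summits, and the 1 summit on Y was not near such an end. No share under mm9 is given here for comparison. The choice of mm10 rests on the browser view and these shares. Interval starts count from 1, and summits are as deposited.

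Strand and starts came from the RefSeq promoter table, which holds 17492 of 21887 protein-coding genes and 50 of the 65 listed ones. For genes without an entry, positions refer to a gene end. Genome sequence of the intervals was not used here. All 8 genes were reported, with the listed genes that had an interval or a summit within 50 kb, except for results on some genes, which are not reported here. The genes and lists were chosen with earlier results of these data known. With 1 library per group no test was made. Alternatives were other distances, height thresholds, overlaps, merging and motifs. Overlaps and distances were tested on simulated data. Scripts ran under Python 3.11.15 with pandas 2.3.3, numpy 2.4.6, matplotlib 3.10.9 and scipy 1.17.1.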

Additional observations from a re-analysis of the deposited data

How the results depend on the processing

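Of 38 comparisons with an alternative, 25 stayed within 1.5 times the value reported and 13 moved beyond that. Some of the 25 could not have moved, such as narrower searches for TAATT where TAATT itself was absent, so their number is no measure of stability. Only the search for TAAT was chosen after seeing the data. Irs2 and Pik3ca were the genes with an interval at 1 kb, with 50% of the interval required inside, without input-called intervals, and after merging neighbors less than 10 kb apart. For these 2 genes that follows from the positions of their intervals and from their absence in the input, and it is no separate check. When only summits of at least the median height, or of 19 and more, were used, 0 of the 8 genes and 0 intervals were left. The genes of the list then numbered 17 and 10 in place of 19, and all protein-coding genes with an interval 2332 (10.7%) and 1325 (6.05%) in place of 4168. With 50 kb in place of 10 kb, Pik3cd and Akt2 were added, giving 4 genes and 4 intervals, while 7299 protein-coding genes (33.3%) had one. Fewer or more calls follow from the construction of these alternatives. For genes without an interval, the median distance rose from 368 to 590 kb under the former limit, because the nearest such summit was 1820 kb from Irs1 and 732 kb from Akt2. Within 300 bp of a start 0 of the 8 genes had a summit, in place of 2. With TAAT in place of TAATT, 4 genes held the motif in place of 0. No paired analysis was possible because the ChIP and the input are 1 library each, which also leaves no replicate to omit.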

Other observations

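The promoter windows of Irs1 and Irs2 both held CACGTG, which was present in 7.84% of all 21263 windows. The letters were noticed on reading the sequences and were not a planned search. In Irs1 the motif began 115 bases before the start, and in Irs2 44 bases before it. Around this motif the 2 windows shared a run of 10 bases, gtCACGTGtt. This run, in either direction, was present in 21 windows of 21 genes (0.0988%). Irs1 and Irs2 were among these by construction, since the run was taken from their windows. Irs4, the X-linked relative, was another, with the run beginning 156 bases before its start. Of these 3 genes, Irs2 alone had a Myc-Tag interval. The other genes with the run, among them Max, Mcoln1 and Hoxd10, are outside the Irs family, so the run is not particular to it. Intervals at those other genes were not compared here. Over all genes, CACGTG was present in 11.2% of windows that overlapped an interval and in 7.46% of the others. The former windows were also richer in G and C (median 63.3% against 55.7%), and the part of base composition in this difference was not tested.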
